A study of Rattus norvegicus with 6 samples.

Results

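Genes for chemokines, interleukins and their receptors, together with the NF-kB family and a few of its best-known targets, were followed in rat H9c2 cells after knockdown of the long non-coding RNA Tug1. The members were all genes of the count table whose symbol starts with Ccl, Cxcl, Cx3cl or Il and a number, plus Nfkb1, Nfkb2, Rela, Relb, Rel, Nfkbia, Nfkbie, Nfkbiz, Tnfaip3, Csf1, Lif, Tnf, Ptgs2, Icam1 and Vcam1. Cxcl10, Cxcl11 and Ccl5 were left out by the rule. That gave 126 of the 40456 genes in the table. Of these, 53 had at least 10 counts in at least 3 libraries and are described here, and 73 did not reach that minimum. The rule selects members by symbol and holds no measured value, but it was chosen with earlier results of these data known. The minimum does use measured values: 2 of the 53, Cxcl2 and Il9r, reached it through the control libraries alone. The filter of the test kept all 53.

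H9c2 (2-1) is a clonal myoblast line from embryonic rat heart, labelled as wild type. All cells were held for 5 days in medium with 1% serum and 1 µM retinoic acid and then transfected for 24 h with 25 nM of an antisense locked nucleic acid gapmer, a chemically stabilised oligonucleotide that makes RNase H cleave its target transcript. The 3 control libraries received a negative control gapmer and the 3 knockdown libraries a gapmer against Tug1. Both groups thus carry an oligonucleotide and the transfection reagent, and no untransfected group was analysed here. Effects of losing Tug1 and other effects of either oligonucleotide sequence cannot be told apart with these groups. Both oligonucleotides are 16 bases long and are shown because they are the labelled difference between the groups.
Tug1 gapmer: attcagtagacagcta
Negative control gapmer: gctcccttcaatccaa
The labels do not say whether replicates came from separate cultures, so p-values measure the spread between these libraries, which may be technical.

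NF-kB is a family of dimeric transcription factors built from the products of Rela, Relb, Rel, Nfkb1 and Nfkb2. In resting cells inhibitor proteins of the IkB family hold the dimers in the cytoplasm, and signals from the interleukin 1, Toll-like and TNF receptors lead to the breakdown of the inhibitors. The dimers then switch on chemokine, cytokine and adhesion genes and also the genes of their own inhibitors, which closes a feedback loop. In heart muscle this pathway is known for its part in injury, hypertrophy and recruitment of leukocytes.

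Total counts ran from 12978548 to 13544337 per library, and levels are given in CPM, which are counts scaled to library size. A level of 1 CPM stood for 12.9 to 13.8 counts. A limit of 3 counts corresponded to 0.217 to 0.232 CPM. It covers counting error only. Tug1 itself measured 54.7, 52.0 and 55.4 CPM in the controls and 11.9, 11.2 and 12.5 CPM in the knockdown libraries (replicates 1, 2 and 3 in this order, here and below), which follows the labels. Skeletal muscle markers were present, among them Myog, Myod1 and Myh3, but Myf5 had 0 or 1 count in each library. Also present were Des, Tnnt2 (349 and 410.3 CPM on average in controls and after knockdown), Tnnc1 (335 and 319.7) and Actc1 (9.22 and 18.1), which heart muscle also expresses. The heart markers Myh6, Myh7, Nkx2-5 and Ryr2 had 0 to 3 counts in any library although the labels call the cells cardiomyocytes. Summed over the 15 muscle markers, the level was 1410 to 1494 CPM in controls and 1793 to 1916 CPM after knockdown. Myod1 went against this sum (log2 fold change -0.32, adjusted p 0.000324), and Tnnc1, Mef2c and Actn2 had no call. The part of the shift in the muscle sum in the results below was not tested. Of the macrophage markers, Ptprc, Adgre1 and Tyrobp were at 0 in every library, and the whole list summed to 81.4 to 84.9 CPM in controls and 51.7 to 52.1 CPM after knockdown, most of it Cd14. Cd68 went the other way, at 3.60 and 7.65 CPM on average (log2 fold change 1.09, adjusted p 2.41e-05). No neutrophil or lymphocyte marker reached the minimum. The 7 neutrophil markers summed to 0.0767 to 0.232 CPM in controls and 0.370 to 0.529 after knockdown, with S100a8, S100a9 and Csf3r at 0, and the 9 lymphocyte markers to 1.30 to 1.70 and 0.870 to 1.04 CPM, with Cd3g and Ms4a1 at 0. The endothelial list gave 3.10 to 4.63 and 3.11 to 4.28 CPM with Cldn5 at 0. The 9 fibroblast markers, mostly Col1a1 and Col1a2, gave 37764 to 39463 and 32749 to 35424 CPM. Dcn went against this sum (log2 fold change 0.57, adjusted p 3.29e-10), and Col1a2 and Lum had no call. The part of these shifts in the results was not tested. In such bulk libraries fewer cells with a transcript and less of it per cell cannot be told apart.

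Of the 53 members, 42 differed between the groups at an adjusted p under 0.05 in edgeR's quasi-likelihood test, which is 79.2%, beside 61.7% of all 14216 tested genes. A gene is called higher or lower on that threshold and otherwise has no call. The direction was uneven: 30 members (56.6%) were lower after knockdown and 12 (22.6%) were higher, while over all tested genes 30.9% were lower and 30.8% higher. The median log2 fold change, knockdown over control, was -0.39 for the members and 0.00 for all tested genes. The control and knockdown libraries did not overlap for 39 members (73.6%, against 65.6% of all tested genes). A change of at least 1 on the log2 scale was reached by 11 members (20.8%, against 9.80%), all of them lower. Cxcl2 and Il9r, which the minimum admitted through the controls alone, had to be higher in controls. Without them 40 of 51 members were called, 28 lower and 12 higher, the median was -0.38, and 9 (17.6%) reached a change of 1, all lower. Among these 9, Il19 and Il1rl2 had at least 10 counts in all 3 controls but in only 1 and 2 knockdown libraries, so the minimum rested mainly on their controls. These counts describe the members and were given no test of their own. Most of the tested chemokine and cytokine ligands fell, 4 of the 5 furthest falls among receptors were in the interleukin 1 family, the NF-kB subunits moved both ways, and both chains of the interleukin 6 receptor rose.

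**Figure D1:**
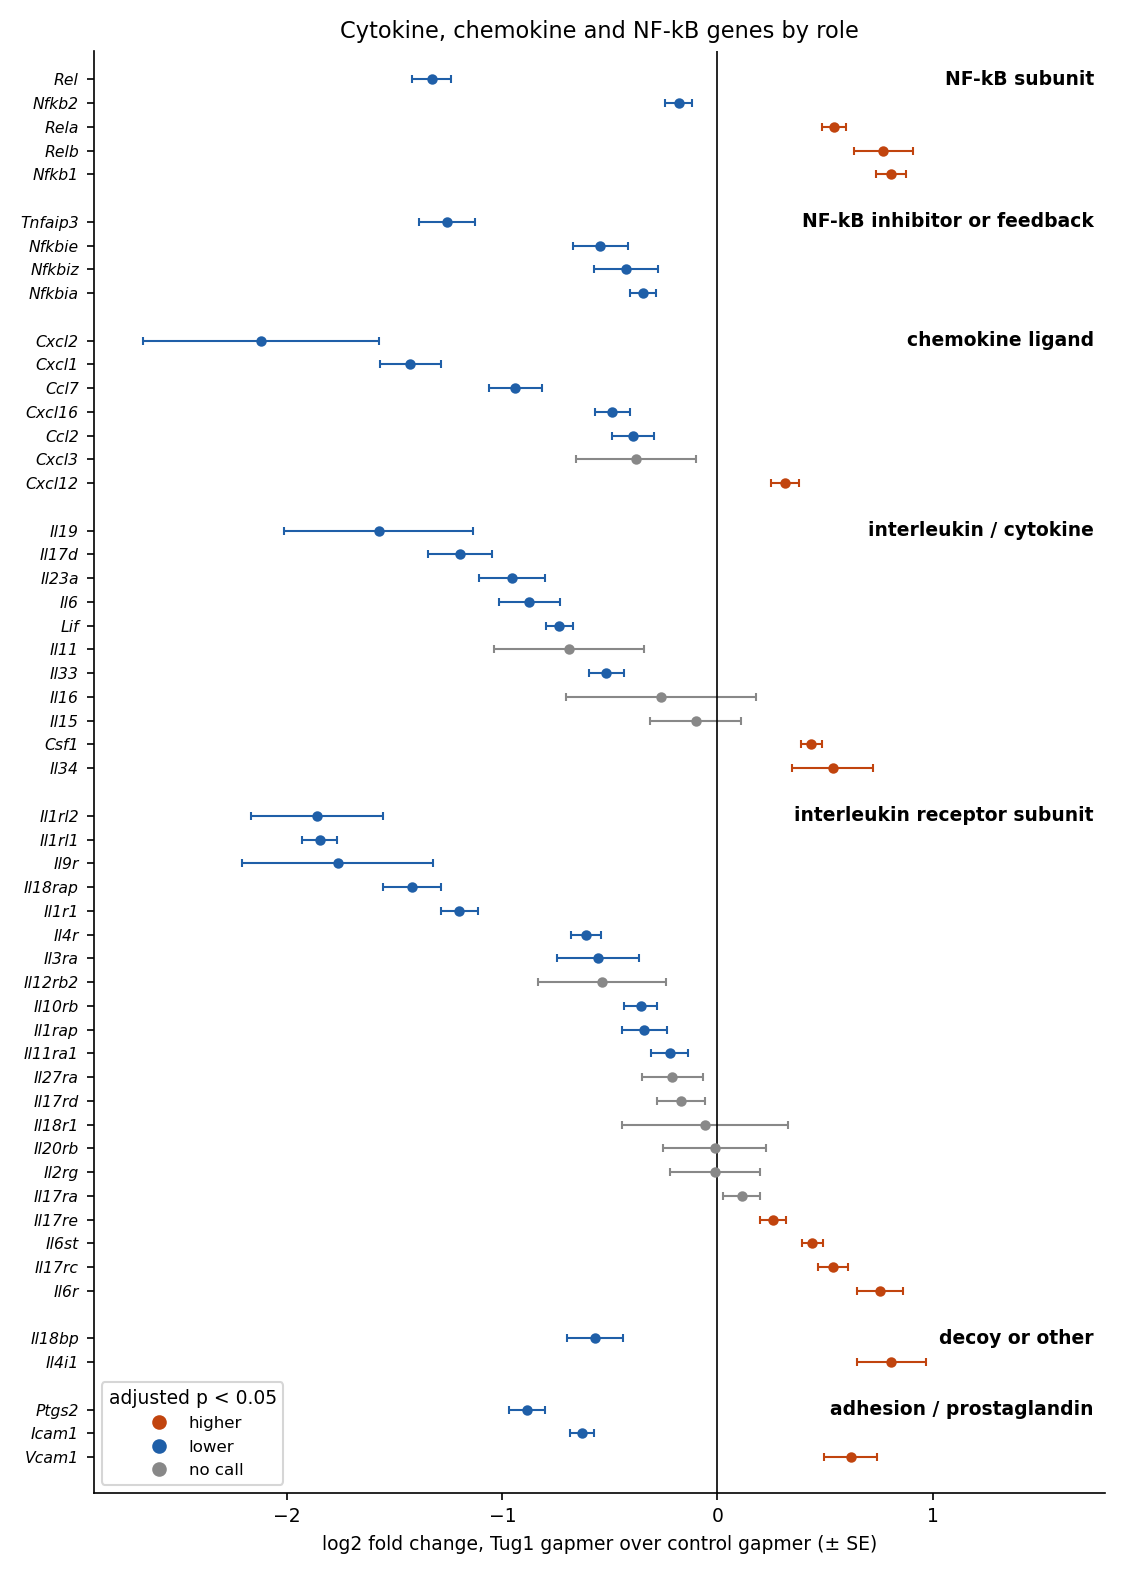
Log2 fold change (knockdown over control, x axis) with its standard error for the 53 members, grouped by role; blue is lower, orange higher and grey no call at an adjusted p of 0.05. All 4 feedback genes sit left of 0, 3 of 5 NF-kB subunits sit right of it, and all 11 changes of at least 1 are to the left. Of these 11, Cxcl2 and Il9r reached the minimum through the control libraries alone.

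Sequences upstream of the genes are shown for 8 members, 7 that fell and Vcam1, which rose, as examples of matches to the kappaB consensus, the sequence NF-kB dimers bind. They were picked by hand, with the values known, among 16 members with a match before the start. The others were Rel, Nfkb2, Nfkbie, Il1r1 and Il1rap, which were lower, Il4i1, which was higher, and Il12rb2 and Il27ra, which had no call. RefSeq windows of GRCr8, from 250 bases before to 50 after each annotated start, were at hand for 43 of the 53 members. The search covered both strands for the kappaB consensus. Capitals mark the matches, and each stretch is written 5′ to 3′ on the strand of its gene and ends before the annotated start.
Cxcl1 (chr14:17479365-17479435, minus strand): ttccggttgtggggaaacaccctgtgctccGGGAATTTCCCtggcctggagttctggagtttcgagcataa
Cxcl2 (chr14:17467289-17467359, minus strand): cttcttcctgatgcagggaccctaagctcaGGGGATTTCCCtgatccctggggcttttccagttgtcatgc
Ccl7 (chr10:67514006-67514075, plus strand): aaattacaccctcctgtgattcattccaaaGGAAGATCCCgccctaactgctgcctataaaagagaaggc
Il6 (chr4:5894604-5894673, minus strand): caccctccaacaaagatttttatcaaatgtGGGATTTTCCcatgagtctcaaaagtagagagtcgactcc
Nfkbia (chr6:78597073-78597133, minus strand): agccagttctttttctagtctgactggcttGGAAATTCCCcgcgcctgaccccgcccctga
Nfkbiz (chr11:58251678-58251720, plus strand): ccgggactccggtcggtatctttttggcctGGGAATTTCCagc
Tnfaip3 (chr1:15543995-15544179, minus strand): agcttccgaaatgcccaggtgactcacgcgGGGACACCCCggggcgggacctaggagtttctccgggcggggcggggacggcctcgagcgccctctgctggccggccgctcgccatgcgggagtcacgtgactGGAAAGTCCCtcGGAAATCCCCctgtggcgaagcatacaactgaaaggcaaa
Vcam1 (chr2:206742837-206742906, minus strand): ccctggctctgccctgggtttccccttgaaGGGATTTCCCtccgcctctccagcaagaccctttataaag
Cxcl1 and Cxcl2 each hold 2 overlapping matches at similar places, from -84 to -74 and from -74 to -64 relative to the start. Tnfaip3 has 3 matches and the other 5 genes shown have 1 each. Nfkb1, which rose, has its match from 3 to 12, after the start, and it is not printed.

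Matches to the kappaB consensus stood in at least 1 window for 19 of the 43 members (44.2%), beside 2240 of 27457 genes in the whole table (8.16%). By call, 13 of 26 members that fell, 4 of 8 that rose and 2 of 9 without a call held the consensus. A narrower form of the consensus stood in 8 of the 43 (18.6%), beside 380 genes of the table (1.38%), with 7 of 26 that fell, 1 of 8 that rose and 0 of 9 without a call. These shares are a description, and no difference between them was tested. Because the member rule names NF-kB genes and some well-known NF-kB targets, the comparison with all genes is not independent of the choice of members. A match is not a measured binding site.

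The 5 NF-kB subunit genes split, with Rel lower and Rela, Relb and Nfkb1 higher. Rel encodes c-Rel, a subunit with a transactivation domain that is best known from lymphocytes. Its level was 31.3, 31.4 and 27.9 CPM in controls and 11.2, 12.4 and 12.5 CPM after knockdown. Every knockdown library was under 13 CPM and every control library above 27, a log2 fold change of -1.33 (SE 0.0910, adjusted p 2.05e-11). Rela, which encodes the p65 subunit of the most common dimer, had 69.6, 72.9 and 70.6 CPM in controls and 98.1, 109 and 103 CPM after knockdown. All 3 knockdown libraries lay above all controls, with a log2 fold change of 0.54 (SE 0.0561, adjusted p 1.75e-08). Nfkb1 encodes p105, the precursor of p50, the usual partner of p65. It had 23.9, 25.4 and 25.7 CPM in controls and 44.3, 42.2 and 44.7 CPM after knockdown, again without overlap, a log2 fold change of 0.81 (SE 0.0709, adjusted p 1.26e-09). Relb, the subunit of the non-canonical branch, went from 8.94 ± 1.74 to 15.3 ± 2.28 CPM (SD, n = 3), and its log2 fold change was 0.77 (SE 0.136, adjusted p 3.45e-05). Nfkb2 encodes p100, the partner of RelB. It had 119, 125 and 104 CPM in controls and 97.8, 109 and 101 CPM after knockdown, and its control replicate 3 lay within the knockdown range. Its log2 fold change of -0.18 (SE 0.0627, adjusted p 0.0157) did not pass with library totals (-0.13, adjusted p 0.0789), with an offset that removes the trend of each library on gene length (-0.08, adjusted p 0.218), or in the fits without control replicate 1, control replicate 2, knockdown replicate 1 or knockdown replicate 3 (-0.17 to -0.13, adjusted p 0.0534 to 0.113). How protein levels or the place of these subunits in the cell changed was not measured.

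All 4 inhibitor and feedback genes among the members were lower, while over all tested genes 30.9% were lower. Inhibitors outside the member rule moved both ways, as given below. Of these, Nfkbib, the gene of IkB beta, was named with its value known and had no call (0.09, SE 0.0834, adjusted p 0.360). Tnfaip3, which encodes the ubiquitin-editing enzyme A20 that ends signalling upstream of NF-kB, had 15.3, 16.0 and 17.5 CPM in controls and 5.94, 6.21 and 8.31 CPM after knockdown. The groups were well apart, with a log2 fold change of -1.26 (SE 0.128, adjusted p 1.38e-08). Nfkbia encodes IkB alpha, the inhibitor that is remade within the hour after activation. It had 54.9, 56.5 and 56.1 CPM in controls and 45.2, 43.0 and 43.6 CPM after knockdown. The fall of Nfkbia was small but larger than the spread of either group, with a log2 fold change of -0.35 (SE 0.0602, adjusted p 2.95e-05), and it was -0.18 (adjusted p 0.0115) with the offset for gene length. Nfkbie, the gene of IkB epsilon, went from 16.2 ± 2.39 to 11.1 ± 1.91 CPM (SD, n = 3), at -0.54 (SE 0.127, adjusted p 0.000763) on the log2 scale. Nfkbiz encodes IkB zeta, a nuclear relative that acts as a cofactor on a set of secondary targets. It went from 10.3 ± 0.683 to 7.67 ± 1.91 CPM (SD, n = 3), but knockdown replicate 1, at 9.86 CPM, lay among the controls. Its log2 fold change was -0.43 (SE 0.148, adjusted p 0.0160), and -0.65 without that library. It lost its call without control replicate 3 (-0.37, adjusted p 0.0640), knockdown replicate 2 (-0.34, 0.0653) or knockdown replicate 3 (-0.31, 0.101).

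**Figure D2:**
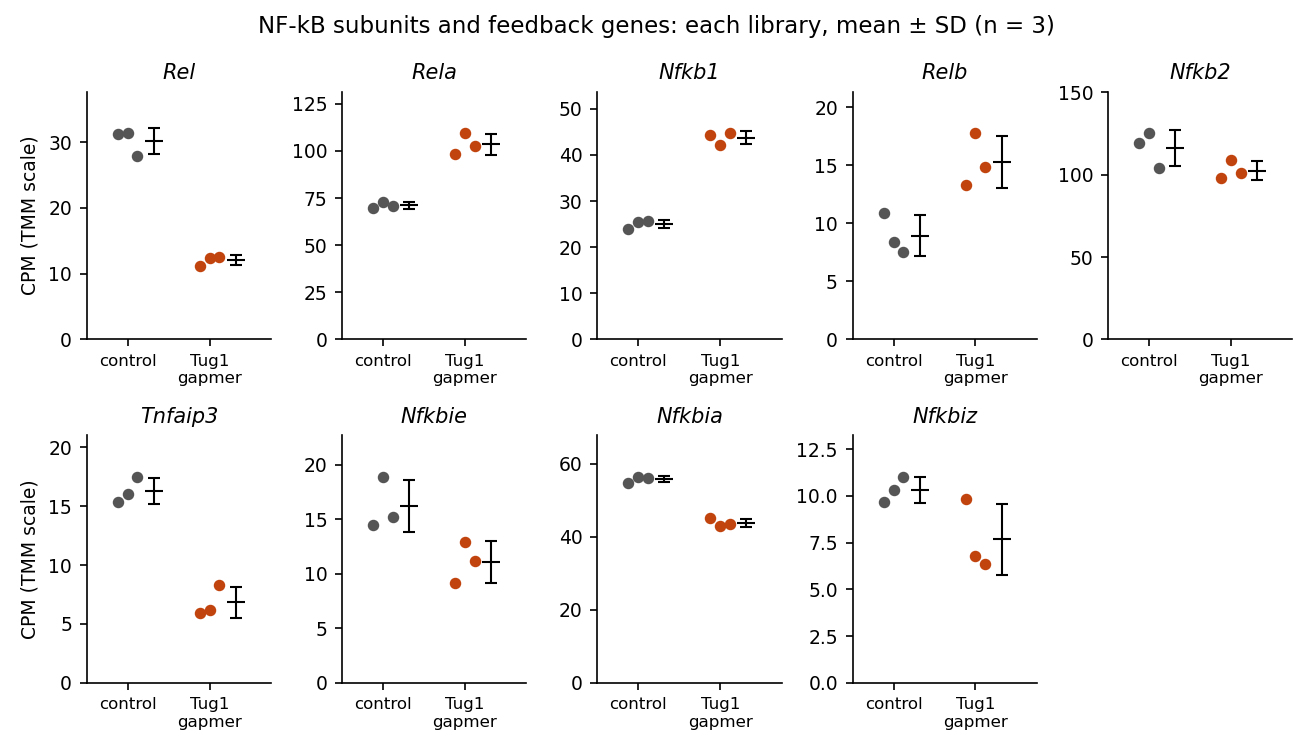
CPM on the TMM scale (y axis, from 0, scaled per gene) of the 5 NF-kB subunit genes and 4 feedback genes in each control (grey) and knockdown (orange) library, with mean ± SD beside the points. Rel and Tnfaip3 fell and Rela, Nfkb1 and Relb rose without overlap, while Nfkb2 and Nfkbiz overlap between the groups.

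Among 30 chemokine ligands, 7 reached the minimum, 5 of these fell, 1 rose and 1 had no call. The share called was 85.7%, beside 61.7% of all tested genes, and the share lower was 71.4%, beside 30.9%. Both shares include Cxcl2, which reached the minimum through the controls alone and so had to be higher in controls. The neutrophil-attracting chemokine gene Cxcl1 fell furthest of those with more than a few counts. It had 16.0, 13.2 and 13.8 CPM in controls and 6.23, 5.62 and 4.08 CPM after knockdown. Every knockdown library was below 50% of every control, a log2 fold change of -1.43 (SE 0.143, adjusted p 1.04e-08). Its neighbour Cxcl2 had 16, 14 and 13 counts in controls and 2, 0 and 8 counts after knockdown. All knockdown libraries of Cxcl2 were lower. Its log2 fold change was -2.12 (SE 0.549, adjusted p 0.00189), and -3.75 without knockdown replicate 3. The third gene of that cluster, Cxcl3, had 33, 22 and 30 and 16, 25 and 27 counts and no call (-0.38, SE 0.278, adjusted p 0.247). These 3 genes are close relatives, and how reads that match more than 1 of them were counted is not given in the sources used here, so their single values are uncertain.

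The monocyte chemoattractant genes Ccl2 and Ccl7 lie next to each other and were both lower. Ccl7 had 14.4, 14.6 and 16.7 CPM in controls and 7.03, 9.17 and 7.63 CPM after knockdown, a log2 fold change of -0.94 (SE 0.122, adjusted p 5.98e-07) without overlap. Ccl2 had 28.1, 27.1 and 31.9 CPM in controls and 25.4, 21.9 and 18.9 CPM after knockdown. The highest knockdown library stayed just under the lowest control, and the log2 fold change was -0.39 (SE 0.0966, adjusted p 0.00119). With the offset for gene length Ccl2 was at -0.19 and did not pass (adjusted p 0.0919). Cxcl16, a membrane-anchored chemokine that also serves as a scavenger receptor, had 26.5, 29.3 and 26.3 CPM in controls and 19.4, 19.97 and 19.2 CPM after knockdown, and its log2 fold change was -0.49 (SE 0.0822, adjusted p 1.98e-05). Cxcl12, a homeostatic chemokine that guides stem and progenitor cells, was the exception. It had 360.3, 314 and 372 CPM in controls and 465, 379.6 and 456 CPM after knockdown, a log2 fold change of 0.31 (SE 0.0652, adjusted p 0.000224). Its lowest knockdown library lay only slightly above its highest control. Of the receptors for these ligands, Cxcr4 and Ccr2 were at 0 in every library, Cxcr2 had 0 to 3 counts, and the CXCL12 scavenging receptor Ackr3 was lower (-0.27, adjusted p 8.09e-05); these receptors were singled out with their values known.

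Of 40 interleukin and other cytokine ligands, 11 reached the minimum, with 6 lower, 2 higher and 3 without a call. The share called was 72.7%, beside 61.7% of all tested genes, and the share lower was 54.5%, beside 30.9%. Lif, the gene of leukaemia inhibitory factor, a cytokine of the interleukin 6 family with known hypertrophic action on heart cells, had 97.4, 107 and 90.4 CPM in controls and 56.3, 61.2 and 59.9 CPM after knockdown. Lif did not overlap between the groups and its log2 fold change was -0.74 (SE 0.0635, adjusted p 9.58e-10). Il6 itself had 10.6, 10.1 and 11.8 CPM in controls and 5.00, 6.95 and 5.74 CPM after knockdown, again with all knockdown libraries lower, at -0.87 (SE 0.141, adjusted p 1.18e-05). Il11, a further ligand of that family, was low, with 25, 16 and 15 and 10, 9 and 17 counts, and had no call (-0.69, SE 0.349, adjusted p 0.0917); it passed only without knockdown replicate 3 (-1.04, adjusted p 0.0349).

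Il23a, the gene of the p19 chain that forms interleukin 23 with the product of Il12b, had 36.8, 30.1 and 29.9 CPM in controls and 10.4, 22.9 and 16.7 CPM after knockdown. The knockdown libraries spread widely but all lay below the controls, at -0.96 (SE 0.153, adjusted p 1.04e-05). Il12b, which makes the other chain, had 0 counts in all 6 libraries. Il33 encodes a nuclear alarmin released from damaged cells. It had 37.0, 32.7 and 35.5 CPM in controls and 27.5, 22.9 and 23.1 CPM after knockdown, at -0.52 (SE 0.0831, adjusted p 1.13e-05). Il17d had 12.3, 10.7 and 10.95 CPM in controls and 5.58, 5.40 and 3.78 CPM after knockdown, less than 60% of any control in each knockdown library, at -1.20 (SE 0.148, adjusted p 2.87e-07). Il19, a relative of interleukin 10, had 20, 15 and 20 counts in controls and 13, 2 and 4 counts after knockdown. Only 1 knockdown library of Il19 reached 10 counts, and its log2 fold change was -1.57 (SE 0.438, adjusted p 0.00345), and -2.60 without that library, knockdown replicate 1.

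Both ligands of the macrophage growth factor receptor rose, in contrast to the inflammatory cytokines. Csf1 had 126, 119 and 117 CPM in controls and 158, 163 and 169 CPM after knockdown. Its groups were far apart relative to their spread, with a log2 fold change of 0.44 (SE 0.0506, adjusted p 1.03e-07). The second ligand, Il34, went from 3.11 ± 0.335 to 4.51 ± 0.431 CPM (SD, n = 3), at 0.54 (SE 0.189, adjusted p 0.0175). Il34 did not pass with DESeq2's Wald test (adjusted p 0.0625), with the offset for gene length (0.41, 0.0653), or without control replicate 1 (0.47, 0.0653) or knockdown replicate 1 (0.47, 0.0716). Their receptor gene Csf1r, singled out with its values known, was at 7.65 and 8.83 CPM and had no call (0.21, adjusted p 0.171). Il15 (-0.10, SE 0.211) and Il16 (-0.26, SE 0.441) had no call either, and both changed sign when a library was left out. Tnf, a classical activator and target of NF-kB, had 0 or 1 count in each library.

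**Figure D3:**
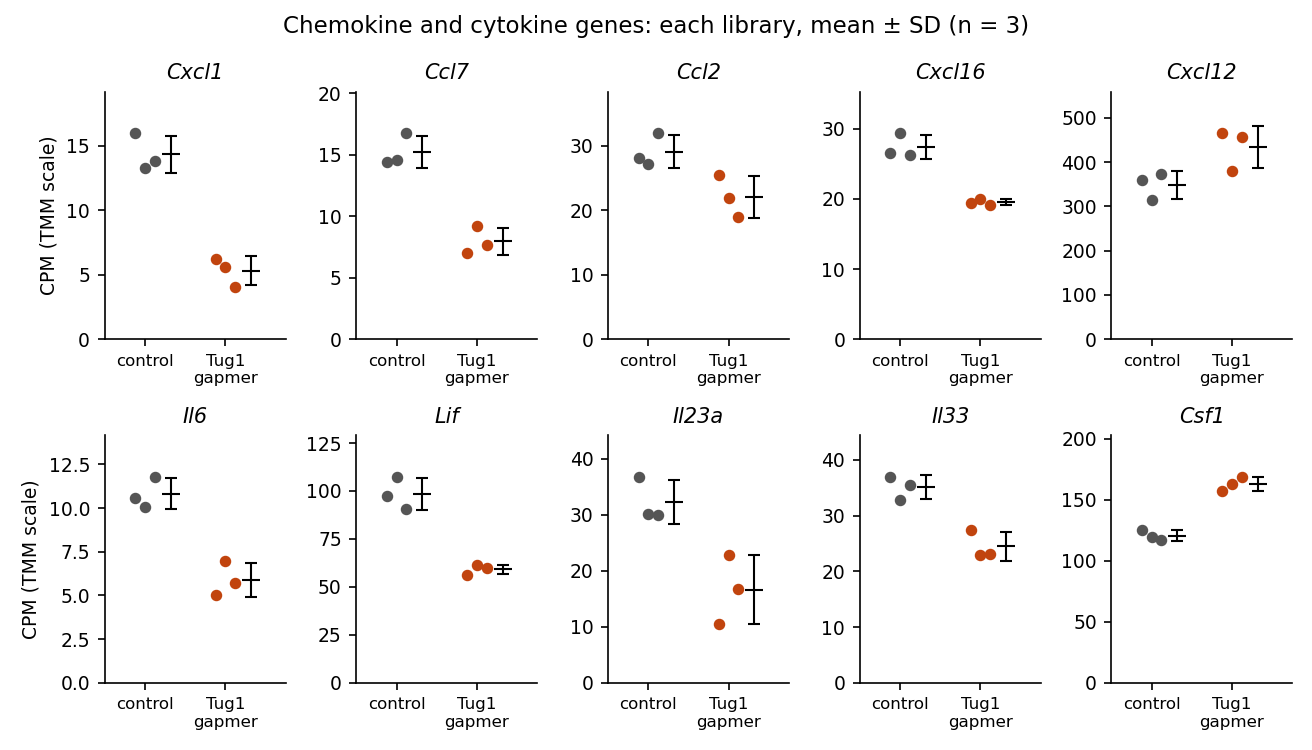
CPM on the TMM scale (y axis, from 0, scaled per gene) of 5 chemokine and 5 cytokine genes in each control (grey) and knockdown (orange) library, with mean ± SD beside the points. Cxcl12 and Csf1 are higher after knockdown, and the other 8 genes are lower in every knockdown library than in any control.

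Of 37 interleukin receptor subunits, 21 reached the minimum, 10 fell, 4 rose and 7 had no call. The 66.7% called lies near the 61.7% of all tested genes. Of the 5 receptor genes with a log2 fold change under -1, 4 belong to the interleukin 1 family, Il1rl2, Il1rl1, Il18rap and Il1r1. The fifth is Il9r, which reached the minimum through the controls alone and so had to be higher in controls. Il1rl1 encodes ST2, the receptor for interleukin 33 and, in its soluble form, a known marker of cardiac strain. It had 63.0, 63.6 and 56.1 CPM in controls and 17.0, 14.9 and 18.8 CPM after knockdown, which left 27.7% of the control mean, at -1.85 (SE 0.0826, adjusted p 1.82e-14). The counts do not separate soluble from membrane-bound forms. Il1r1, the signalling receptor for interleukin 1, had 32.1, 30.4 and 32.4 CPM in controls and 14.9, 12.9 and 13.5 CPM after knockdown, at -1.20 (SE 0.0861, adjusted p 4.24e-11). Il18rap, the accessory chain of the interleukin 18 receptor, had 12.4, 12.2 and 14.1 CPM in controls and 4.71, 4.44 and 5.29 CPM after knockdown, at -1.42 (SE 0.135, adjusted p 4.19e-09). For each of these the highest knockdown library was below 50% of the lowest control.

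Il1rl2, the receptor for interleukin 36, had 42, 45 and 43 counts in controls and 5, 16 and 16 counts after knockdown, at -1.86 (SE 0.307, adjusted p 1.54e-05). Il1rap encodes the coreceptor shared by the receptors for interleukins 1, 33 and 36, and its log2 fold change was smaller than theirs. It had 28.1, 29.0 and 26.8 CPM in controls and 17.3, 25.4 and 23.6 CPM after knockdown, at -0.34 (SE 0.104, adjusted p 0.00689). Without knockdown replicate 1 it was at -0.19 and did not pass (adjusted p 0.0805). With the length offset it was at -0.59. Il18bp, which encodes a secreted protein that binds and blocks interleukin 18, went from 11.7 ± 1.23 to 7.89 ± 1.13 CPM (SD, n = 3), at -0.57 (SE 0.132, adjusted p 0.000670). Apart from Il33, the classical ligands were scarce. Il1b had 0 counts throughout, Il1a 0 or 1, and Il18 between 2 and 7.

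By the order of coding genes in the RefSeq table of the rat assembly GRCr8, Il1r1, Il1rl2, Il1rl1, Il18r1 and Il18rap follow each other without another coding gene between them. This group was noticed after the values were seen, and its joint movement was not tested. Of the 5, 4 fell, with log2 fold changes from -1.86 to -1.20. The fifth, Il18r1, sits between Il1rl1 and Il18rap and had 9, 16 and 8 counts in controls and 12, 13 and 8 counts after knockdown, with no call (-0.06, SE 0.386). Il1r2, the decoy receptor gene on one side, had 1 to 5 counts, and Slc9a4 and Slc9a2 on the other side had 0 to 3. The nearest tested coding genes were Map4k4, which was higher (0.64, SE 0.0445), and Mfsd9, which was lower by less (-0.49, SE 0.159).

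**Figure D4:**
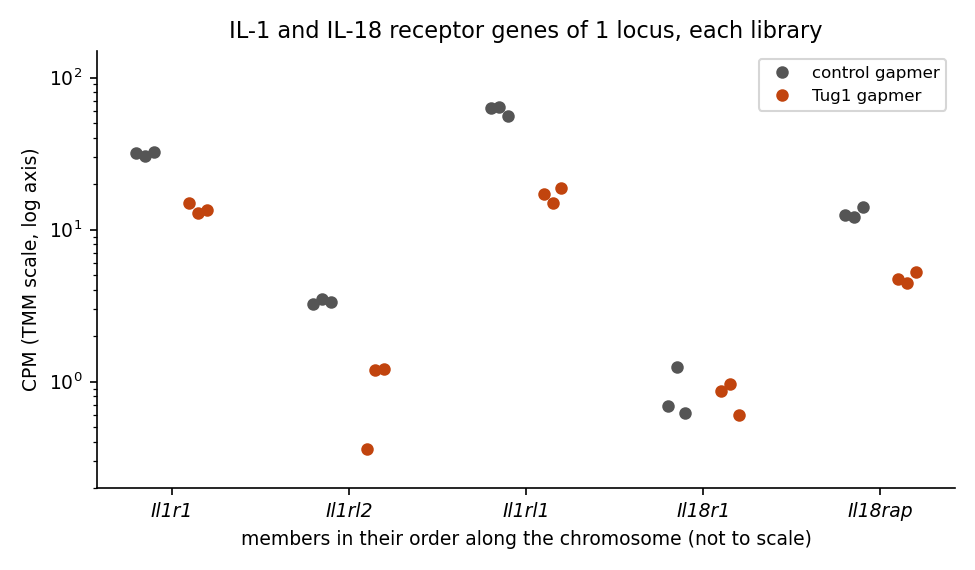
CPM on the TMM scale (y axis, log) of the 5 receptor genes in their order along the chromosome, with 3 control (grey) and 3 knockdown (orange) libraries each; distances are not to scale. The knockdown points of Il1r1, Il1rl2, Il1rl1 and Il18rap lie below all their controls, and those of Il18r1 overlap with theirs.

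Receptor chains of the interleukin 6 family moved both ways: Il6st and Il6r rose, while Lifr and, by a small margin, Il11ra1 fell. Il6st encodes gp130, the signal-transducing chain shared by interleukin 6, interleukin 11 and LIF. It had 531, 497 and 549 CPM in controls and 667, 748 and 727 CPM after knockdown, without overlap, at 0.44 (SE 0.0487, adjusted p 4.81e-08). Il6r, the chain that binds interleukin 6, went from 10.0 ± 0.879 to 16.9 ± 0.847 CPM (SD, n = 3), at 0.76 (SE 0.107, adjusted p 1.86e-06). Lifr, the partner of gp130 for LIF, was lower and went from 42.2 ± 1.55 to 20.9 ± 1.30 CPM (SD, n = 3), at -1.01 (SE 0.0757, adjusted p 8.23e-11). The oncostatin M receptor gene Osmr, chosen after its values were seen, was lower as well (-0.82, adjusted p 2.46e-08). Il11ra1 had 28.0, 29.3 and 24.6 CPM in controls and 22.7, 25.4 and 22.1 CPM after knockdown and overlapped between the groups. Its log2 fold change of -0.22 (SE 0.0865, adjusted p 0.0302) did not pass in 8 of 15 alternatives, among them DESeq2's Wald test (adjusted p 0.0685) and the fits without control replicate 1 or 2 or knockdown replicate 1 or 3 (-0.20 to -0.17, adjusted p 0.0834 to 0.132).

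The interleukin 17 receptors rose or had no call. Il17rc, a chain of the receptor for interleukins 17A and 17F, had 42.5, 41.6 and 36.9 CPM in controls and 56.2, 63.5 and 55.8 CPM after knockdown, at 0.54 (SE 0.0701, adjusted p 6.34e-07). Il17re, the chain that recognises interleukin 17C, had 86.7, 74.2 and 78.0 CPM in controls and 92.5, 94.1 and 99.4 CPM after knockdown, at 0.26 (SE 0.0601, adjusted p 0.000684). Both rose without overlap. Il17re and Il17rc are direct neighbours, and of the genes next to the pair Creld1, beside Il17rc, was higher (1.10, SE 0.137) and Jagn1, beside Il17re, was lower (-0.16, SE 0.0582). The shared chain Il17ra had 26.1, 29.8 and 24.6 CPM in controls and 26.2, 30.6 and 30.3 CPM after knockdown, which overlapped, and no call (0.11, SE 0.0865, adjusted p 0.271). Il17rd also had no call (-0.17, adjusted p 0.195), but with the length offset it was lower (-0.52, adjusted p 0.000329). It overlaps Arhgef3 in the gene table, which was lower (-0.57), and the use of strand in counting is not given in the sources used here.

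Of the remaining receptors, Il4r, the shared chain for interleukins 4 and 13, had 61.0, 62.2 and 53.1 CPM in controls and 37.7, 40.5 and 37.1 CPM after knockdown, at -0.61 (SE 0.0697, adjusted p 7.95e-08). Il10rb, a chain shared by the interleukin 10 family, had 39.2, 44.6 and 40.6 CPM in controls and 31.2, 30.3 and 35.6 CPM after knockdown, at -0.36 (SE 0.0762, adjusted p 0.000303). Both fell without overlap. Il9r was scarce, with 11, 15 and 14 counts in controls and 5, 2 and 5 after knockdown, at -1.76 (SE 0.443, adjusted p 0.00147). Il3ra went from 5.73 ± 1.23 to 3.90 ± 0.662 CPM (SD, n = 3), at -0.55 (SE 0.190, adjusted p 0.0143), and lost its call without control replicate 1 (-0.37, adjusted p 0.130) or knockdown replicate 3 (-0.49, adjusted p 0.0533) and with the length offset (-0.43, adjusted p 0.0528). Il12rb2 (-0.54, SE 0.299), Il27ra (-0.21, SE 0.144), Il2rg (-0.01, SE 0.211) and Il20rb (-0.01, SE 0.239) had no call, although Il12rb2 passed with the length offset (-0.71). The signs of Il2rg and Il20rb turned when libraries were scaled by their totals.

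The 2 adhesion molecules moved in opposite directions. Icam1, the ligand of leukocyte integrins, had 189, 191 and 178 CPM in controls and 115, 131 and 114 CPM after knockdown, at -0.63 (SE 0.0560, adjusted p 1.48e-09). Vcam1, which binds the integrin VLA-4 and also takes part in muscle development, went from 14.3 ± 2.61 to 21.9 ± 3.52 CPM (SD, n = 3), at 0.62 (SE 0.122, adjusted p 0.000134). Neither overlapped between the groups. Ptgs2, the inducible cyclooxygenase that makes prostaglandin precursors, had 43.4, 37.2 and 38.6 CPM in controls and 21.5, 19.6 and 23.5 CPM after knockdown, at -0.89 (SE 0.0836, adjusted p 4.06e-09). Il4i1 encodes an amino acid oxidase, which is neither an interleukin nor an interleukin receptor. It had 4.22, 3.72 and 3.93 CPM in controls and 6.23, 7.55 and 7.02 CPM after knockdown, at 0.81 (SE 0.160, adjusted p 0.000142). Il4i1 overlaps Atf5 and Nup62 in the gene table, and Atf5, at far more counts, was higher (0.66), so the value of Il4i1 is uncertain. Cxcl16 and Il6r overlap Zmynd15 and She, which had far fewer counts than they did.

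Genes upstream and downstream of the members were read from 5 lists written from general knowledge of the pathways, with earlier results of these data known. In the list of other receptors and coreceptors, 16 of 40 genes were tested, and 10 fell, 0 rose and 6 had no call. Over all tested genes 30.9% were lower and 30.8% higher. The median log2 fold change of the list was -0.50, beside 0.00 over all tested genes. Cd14, the coreceptor for bacterial lipopolysaccharide, went from 68.0 ± 1.19 to 33.4 ± 1.18 CPM (SD, n = 3), at -1.03 (SE 0.0615, adjusted p 2.26e-12). Clcf1, a cytokine of the interleukin 6 family that the list also holds, went from 43.7 ± 2.48 to 25.8 ± 0.757 CPM (SD, n = 3), at -0.76 (SE 0.0722, adjusted p 4.24e-09). Of the chemokine receptors Ccr1 to Ccr10, Cxcr1 to Cxcr6 and Cx3cr1, Ccr7 was the one tested, and it had no call. Tlr4, the receptor for lipopolysaccharide, was named with its value known and was lower (-0.84, SE 0.119).

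The activation cascade moved both ways, with 12 of 32 tested genes lower, 10 higher and a median of 0.05. Adaptors were found on both sides. Myd88, which links interleukin 1 and Toll-like receptors to the kinases below, went from 67.4 ± 1.86 to 36.9 ± 2.51 CPM (SD, n = 3), at -0.87 (SE 0.0641, adjusted p 6.91e-11). Traf2 and Traf5, ubiquitin ligases of the TNF receptor branch, were at -1.40 (SE 0.106) and -1.22 (SE 0.107). Map3k14, the NF-kB inducing kinase that starts the non-canonical branch, rose from 18.2 ± 1.55 to 37.6 ± 1.42 CPM (SD, n = 3), at 1.05 (SE 0.0811, adjusted p 1.50e-10). Irak3, a kinase-dead relative that dampens interleukin 1 and Toll-like signalling, was higher at 1.03 (SE 0.0882), and the adaptor Tab2 at 0.44 (SE 0.0501). Chosen after their values were seen, the inhibitor kinase genes had small changes, with Chuk at -0.29, Ikbkb at 0.28 and Ikbkg at 0.23.

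Of the other inhibitors and partners of NF-kB, 19 of 20 were tested, 7 rose, 5 fell and the median was 0.05. Cyld, a deubiquitinase that removes activating chains, went from 15.3 ± 1.02 to 43.6 ± 1.54 CPM (SD, n = 3), at 1.51 (SE 0.0795, adjusted p 2.74e-13), opposite in direction to the feedback genes Tnfaip3 and Nfkbia. Peli1 (1.24, SE 0.104) and Nkiras1 (0.93, SE 0.120) were also higher, while Tnip3 (-0.97, SE 0.170), Akirin1 (-0.49, SE 0.0528) and Nkap (-0.35, SE 0.0923) were lower.

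Known NF-kB targets outside the member rule fell more often than they rose, with 16 lower, 2 higher and 6 without a call among 24 tested. Their median was -0.42. Over all tested genes 30.9% were lower and 30.8% higher. Junb, Ripk2 and Ccnd1, which are also under control of other pathways, were at -1.04 (SE 0.0622), -1.02 (SE 0.0702) and -0.82 (SE 0.0453). Sod2, the mitochondrial superoxide dismutase, rose from 83.9 ± 2.67 to 142 ± 5.53 CPM (SD, n = 3), at 0.76 (SE 0.0529, adjusted p 2.81e-11), and complement factor gene Cfb, at 0.692 and 2.04 CPM, was at 1.55 (SE 0.364). In the JAK and STAT list 10 of 24 tested genes fell and 8 rose, with a median of -0.08. Cish and Socs2, feedback inhibitors that STAT5 is known to switch on, were at -1.87 (SE 0.154) and -1.47 (SE 0.122), and Jak2 was at -0.66 (SE 0.0551). Pias2 (1.14, SE 0.0624), Ptpn11 (0.60, SE 0.0471) and Stat2 (0.54, SE 0.0828) were higher. The calls on these lists, 62.5% to 75.0% of the tested genes, lie near the 61.7% of all tested genes or somewhat above it, and no set test was made.

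**Figure D5:**
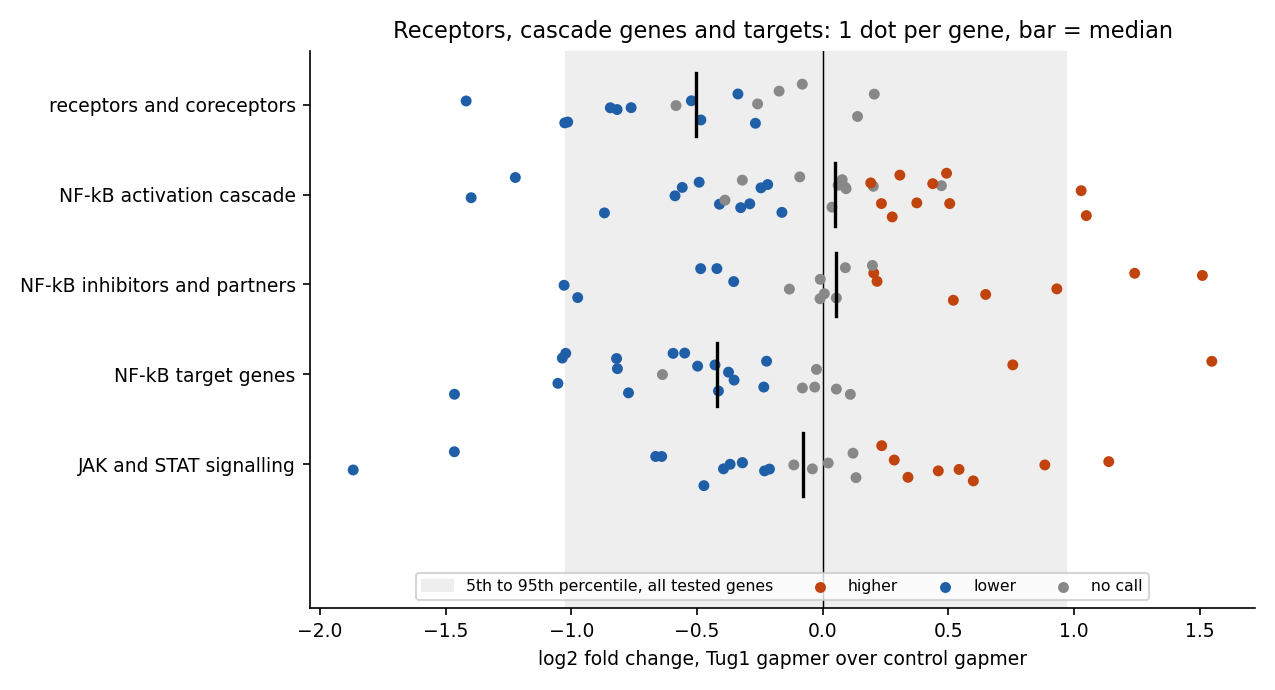
Log2 fold change (knockdown over control, x axis) of each tested gene on the 5 lists, with the list's median as a bar, calls in colour and the 5th to 95th percentile of all tested genes (-1.02 to 0.97) shaded. The lists of receptors and of NF-kB targets have medians of -0.50 and -0.42, and the other 3 lists lie within 0.08 of 0.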

How the data were processed

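Unscaled counts for each gene in each library, with no pooling, are what the authors deposited, judged from the values. Per the submitters' processing notes, FastQC 0.11.7, fastp 0.14.1 and STAR 2.5 were used. Counting tool, build, annotation, strand and treatment of reads that match several genes are not given in the sources used here. Per the labels' protocols, poly-A selected stranded libraries came from 500 ng of RNA with integrity numbers of 9 or higher.

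The test was run with edgeR 4.0.16 (R 4.3.3): expression filter (minimum count 10, minimum total 15), TMM scaling and the two-sided quasi-likelihood test on all 6 libraries without a block, prior count 0.125, with Benjamini-Hochberg adjustment over 14216 genes and a threshold of 0.05. SE is the absolute log2 fold change divided by the root of the F statistic. CPM are on the TMM scale. Every adjusted p is from this test unless another is named. CPM are not per length, so levels are compared within a gene only.

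Members, gene lists and alternatives were chosen with earlier results of these data known. Full values are given for called members that moved by 0.8 or more on the log2 scale or averaged at least 20 CPM. They are also given for uncalled members at 20 CPM or more. From each list, up to 3 genes per direction are named by smallest p, and some others were named with their values known. Alternatives were DESeq2 size factors, library totals, DESeq2's Wald test (1.42.0), limma-voom (3.58.1), no filter, a filter at 1 CPM on average, a threshold of 0.01, a replicate block, an offset removing a lowess trend (span 0.3) on log2 genomic span (92.0% of tested genes, all 53 members), that offset with the block, and each library left out. The scripts were tested on simulated counts. Gene order and overlaps came from RefSeq's GRCr8 table, which held all 53 members by symbol.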

Additional observations from a re-analysis of the deposited data

How the results depend on the processing

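Over the alternatives the number of changed members ran from 37 (adjusted p under 0.01) to 42, with 26 to 30 lower and 11 or 12 higher, and from 38 to 41 with single libraries omitted. Of the 53 members, 38 kept direction and call in all alternatives in which they were tested, and no called member changed sign. Over 790 combinations of member and alternative, 30 lost a call, 5 gained one and 13 changed sign. The 26 genes named from the other lists by smallest p kept direction and call in all 15 alternatives, which that choice favours. Genes named from these lists with their values known were not followed over the alternatives. Members that lost a call are given with their values beside their results. The sign changed only for members without a call: Il16 (-0.67 to 0.0937 over fits without a library), Il15 (-0.22 to 0.13), Il18r1 (-0.24 to 0.31), Il20rb (-0.17 to 0.28, and 0.0386 with library totals) and Il2rg (-0.12 to 0.0531, 0.0419 with library totals, 0.15 with the length offset and 0.16 with the offset and the block). The cause was not tested. Replicate numbers showed little sign of pairing libraries across groups (deviations correlated at -0.00792, 0.0408 and 0.0368 across genes). Such correlations over all tested genes cannot exclude a small effect shared by libraries of the same number. With the number as a replicate block 42 members and 8848 genes were called, beside 8773 genes without it, and no member changed its call. Library totals moved the median of all genes to 0.06. Depth limits the members near 1 CPM, among them Cxcl2, Il19, Il9r, Il11, Il16 and Il18r1.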

Other observations

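Of the 73 members under the minimum, 24 had 0 counts in all 6 libraries, and 11 reached 5 counts in at least 1 library. Il23r had 3, 6 and 4 counts in the controls and 7, 11 and 8 after knockdown, and Cxcl17 had 1, 4 and 3 against 6, 4 and 10. Il13ra2, a decoy receptor for interleukin 13, had 12 counts in control replicate 3 and 1 to 3 in the other libraries, and Il17rb had 9 in control replicate 2 and 1 to 4 in the others. Ccl27, Il15ra, Il18, Il1r2, Il22ra1, Il22ra2 and Il24 stayed at 7 or fewer counts in every library. Il13ra1, the partner of Il4r in the receptor for interleukin 13, is listed at 0 in all 6 libraries. Il9 had 0 counts, and so had the lymphocyte cytokines Il2, Il5, Il21 and Il22, which sets no limit on transcripts counted under other names.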
